A study of Homo sapiens with 8 samples.

Results

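The MiT/TFE family, which in humans comprises MITF, TFEB, TFE3 and TFEC, was followed in the human melanoma cell line SK-MEL-5. All probe sets whose only gene symbol in the platform annotation was 1 of these 4 were taken, which gave 9 of the 45284 probe sets with 1 symbol: 2 for MITF, 2 for TFEB, 2 for TFE3 and 3 for TFEC. RNA was measured on 8 Affymetrix 3' expression arrays in 4 groups of 2. THZ1 cells received 250 nM THZ1, a covalent inhibitor of the transcriptional kinase CDK7, for 6 h together with DMSO that the labels give as 25 µM. DMSO cells received DMSO labelled as 25 µM, with no time given. siMITF cells were transfected with an siRNA against MITF, and siCtrl cells with a non-targeting siRNA from Dharmacon/GE. The time between transfection and harvest is not given in the sources used here. All cells were grown in DMEM with 10% FCS, and no other genetic change is labelled.

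MiT/TFE proteins are basic helix-loop-helix leucine zipper transcription factors that bind as dimers to E-box sequences such as CACGTG and CATGTG, and members can pair with each other. MITF directs melanocyte development and the pigment program and is a lineage oncogene in melanoma. Its melanocyte isoform starts from an internal promoter at which SOX10, PAX3, CREB and LEF1 are known to act. TFEB and TFE3 drive lysosome and autophagy genes, known as the CLEAR network, and are held in the cytoplasm by phosphorylation through mTORC1 on the lysosome. Proteins of the Rag and folliculin complexes recruit them there. TFEC is known mainly from macrophages.

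Array signals are compared below on a pair of scales. The deposited scale uses the signals as deposited, which the series' design text calls normalized to cell number, so that a fall of most transcripts shows on it. The centred scale subtracts from each array the median deviation of its tested probe sets, so that a change on it is relative to the typical probe set. Both use log2(signal + 16). The 27170 probe sets with a mean log2 signal at or above that of a signal of 39.2 were tested with limma, and a probe set passed the test at a Benjamini-Hochberg adjusted p under 0.05 over all of them. The median tested probe set changed by -0.14 with THZ1 and by -0.64 with siMITF on the deposited scale (log2). The arrays of a group are not labelled as separate cultures. The p-values rest on the spread between the 2 arrays of a group, pooled over the 4 groups and informed by all tested probe sets. That spread may be only technical. For the deposited scale limma gave all probe sets the same standard error, 0.24, and treated it as exactly known, so small p-values there overstate the evidence.

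The arrays behind these values correlated at r = 0.994 to 0.995 within groups. The median array signal was 51.1 and 67.6 with THZ1, 61.3 and 76.1 with DMSO, 40.1 and 32.5 with siMITF, and 51.1 and 59.3 with siCtrl. The 37 ERCC spike-in probe sets with a mean signal over 200 had medians of 1183 and 1143 with THZ1 and 1139 and 1113 with DMSO, but 570 and 585 with siMITF and 562 and 547 with siCtrl. The drug arrays and the siRNA arrays therefore look scaled apart, so deposited signals are compared only within each set. Centring removes most of an array-wide factor, less of it for signals near 16, so the orders of centred levels over all 4 groups below are descriptions with no test. The ratio of 3' to 5' ACTB signal, a sign of RNA integrity, was 1.42 and 1.40 on the siMITF arrays and 1.20 and 1.14 on the siCtrl arrays, and its part in the siMITF results was not tested. With THZ1 it was 1.07 and 0.951, against 1.08 and 1.02 with DMSO. Melanocyte lineage markers were present: 7 of 7 genes with a probe set, MITF and SOX10 among them, lay above the filter. Summed over these markers the signal was 36525 and 45081 with THZ1 and 41513 and 44890 with DMSO, and 21576 and 17391 with siMITF and 27206 and 31273 with siCtrl. Of the keratinocyte markers 2 of 6 lay above the filter (KRT10 and SFN), of the fibroblast markers 4 of 8 (DCN, LUM, PDGFRA and PDGFRB) and of the leukocyte markers 1 of 7 (CD68). The fibroblast markers summed to 2719 and 3519 in THZ1 cells and 2429 and 2926 in DMSO cells, most of it LUM. They summed to 1032 and 774 in siMITF cells and 1594 and 1930 in siCtrl cells, and its part in the results was not tested.

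MITF lies on chr3:69739464-69968332, TFEB on chr6:41683978-41736223, TFEC on chr7:115935152-116159896 and TFE3 on chrX:49028726-49043357 (GRCh38.p14, RefSeq). RefSeq start sites gave 9 windows of 250 bases before to 50 after a start for these genes: 3 for MITF, 3 for TFEB, 2 for TFEC and 1 for TFE3. Each was searched on both strands for 5 motifs: the palindromic CREB site TGACGTCA, the LEF1/TCF site CTTTGAT, the E-boxes CACGTG and CATGTG, and the 10-base palindromic CLEAR element, which contains CACGTG. Only the most downstream MITF window, chr3:69936342-69936641 on the plus strand, held any of them. It held TGACGTCA with its first base at -152 and CTTTGAT with its first base at -204, counted from the start. Across 35116 windows of this length TGACGTCA was found in 1.85% and CTTTGAT in 2.62%, which describes the letters and shows no binding. CACGTG was found in 7.26% of windows, CATGTG in 11.1% and the CLEAR element in 0.353%. The window is shown because the factors named for its motifs are among the genes measured below, with TGACGTCA and CTTTGAT in capitals, 5′ to 3′.
MITF: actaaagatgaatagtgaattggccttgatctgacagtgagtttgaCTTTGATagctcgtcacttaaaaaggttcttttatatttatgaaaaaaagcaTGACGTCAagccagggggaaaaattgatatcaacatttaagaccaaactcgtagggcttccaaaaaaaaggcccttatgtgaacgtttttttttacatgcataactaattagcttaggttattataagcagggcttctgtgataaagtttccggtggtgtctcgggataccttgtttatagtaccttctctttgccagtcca

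MITF mRNA was lower in siMITF cells than in siCtrl cells on both scales and with both of its probe sets, which checks the siRNA label. Probe set 11720262_a_at read 1747 and 1168 in siMITF cells, against 3436 and 3936 in siCtrl cells. Its mean signal was 1458 ± 409 with siMITF and 3686 ± 354 with siCtrl (SD, n = 2). In bulk RNA, fewer cells with MITF mRNA and less of it per cell cannot be told apart. Both siMITF arrays lay below both siCtrl arrays, as held for 89.6% of tested probe sets. The change was -1.35 on the deposited scale (SE 0.24, 95% interval -1.83 to -0.88, adjusted p = 6.69e-07), a 2.56-fold lower signal + 16. On the centred scale it was -0.71 (SE 0.10, interval -0.93 to -0.49, adjusted p = 0.000296), 1.64-fold lower relative to the typical probe set. Probe set 11720263_a_at read 788 and 599 in siMITF cells and 1609 and 2019 in siCtrl cells, again with no overlap. Its change was -1.37 on the deposited scale and -0.73 on the centred scale (adjusted p = 0.000184). The names of both probe sets end in _a_at, a design that detects alternative transcripts of 1 gene, so the isoforms of MITF cannot be told apart here.

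The size of the MITF fall is read against the background of the same comparison. As deposited 65.1% of tested probe sets passed as lower with siMITF and 0.294% as higher, so passing there is no distinction. On the centred scale 24.3% passed as lower and 19.6% as higher. Bright probe sets tended to read lower: in the decile of probe sets with the highest mean signal, which holds both MITF probe sets, the median centred change with siMITF was -0.19, with the quartiles at -0.39 and 0.01. The MITF changes of -0.71 and -0.73 lay below the lower quartile. Leaving out any 1 array kept both MITF probe sets past the threshold on both scales, with 11720262_a_at between -1.64 and -1.07 on the deposited scale and between -0.87 and -0.56 on the centred scale. With each probe set's own variance, no probe set passed on the deposited scale, and the adjusted p of both MITF probe sets was 0.0798.

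**Figure D1:**
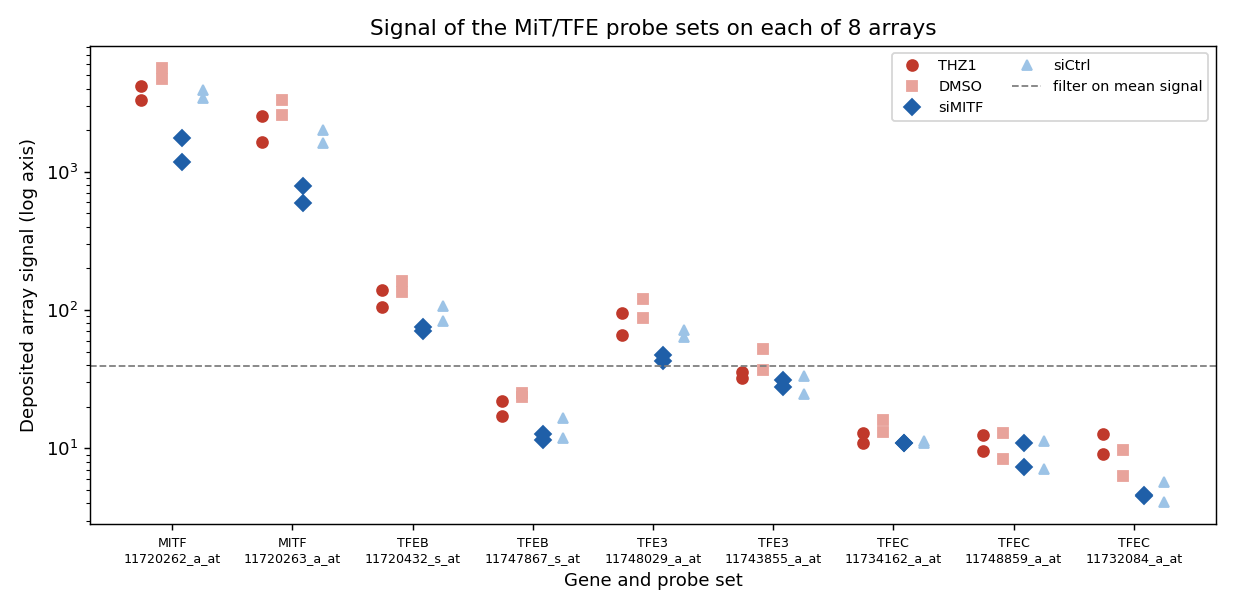
Deposited array signal (vertical log axis) of the 9 MiT/TFE probe sets (horizontal axis), with 1 point per array for the 2 THZ1, 2 DMSO, 2 siMITF and 2 siCtrl arrays. The dashed line is the filter at a mean signal of 39.2. The siMITF points of MITF, 1747 and 1168 for 11720262_a_at, lie below the siCtrl points of that probe set, and the 3 TFEC probe sets lie under the line on all arrays.

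With THZ1, MITF mRNA was lower than with DMSO by a smaller amount, and the call depended on the scale. Probe set 11720262_a_at read 3311 and 4178 in THZ1 cells, against 4670 and 5669 in DMSO cells. Its mean was 3745 ± 614 with THZ1 and 5170 ± 706 with DMSO (SD, n = 2), and the groups did not overlap, as held for 27.6% of tested probe sets lower with THZ1. The change was -0.47 on the deposited scale (SE 0.24, adjusted p = 0.306) and did not pass, where 7.19% of tested probe sets passed as lower and 0.114% as higher. On the centred scale it was -0.29 (SE 0.10, interval -0.51 to -0.07, adjusted p = 0.0437) and passed. There 18.3% of tested probe sets passed as lower with THZ1 and 15% as higher. Probe set 11720263_a_at read 1646 and 2540 with THZ1 and 2563 and 3303 with DMSO. The arrays did not overlap, but the higher THZ1 array lay just under the lower DMSO array. Its change was -0.51 on the deposited scale (adjusted p = 0.239) and -0.33 on the centred scale (SE 0.09, adjusted p = 0.0209). In that brightest decile the median centred change with THZ1 was 0.20, with quartiles at 0.06 and 0.29, so both MITF values lay below the lower quartile of probe sets of like signal.

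The THZ1 call on MITF rested on few arrays. For 11720262_a_at it was lost without any 1 of the THZ1, DMSO or siCtrl arrays, with changes from -0.32 to -0.26 and adjusted p from 0.0202 to 0.159 over the 8 fits that each left out 1 array. For 11720263_a_at it was lost without DMSO replicate 1 (-0.36), DMSO replicate 2 (-0.29) or THZ1 replicate 1 (-0.22), with no filter on low signals (-0.38, adjusted p = 0.0835) and with each probe set's own variance (-0.33, adjusted p = 0.0938). Its deposited change ran from -0.82 without THZ1 replicate 2, where it passed (adjusted p = 0.0232), to -0.20 without THZ1 replicate 1. Under quantile normalization, which makes the arrays' signal distributions equal, the changes with THZ1 were -0.57 and -0.54 and passed (adjusted p = 0.00159 and 0.00175).

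Relative to the typical probe set of all tested signals, the fall of MITF with siMITF exceeded that with THZ1 on the centred scale. The THZ1 change minus the siMITF change was 0.42 for 11720262_a_at (SE 0.14, adjusted p = 0.0345) and 0.40 for 11720263_a_at (adjusted p = 0.0341). On that scale 21.3% of tested probe sets passed in this direction. In the decile of highest mean signal, which holds both MITF probe sets, the median centred change was 0.20 with THZ1 and -0.19 with siMITF. Bright probe sets in general thus differed in this direction, and the MITF difference relative to probe sets of like signal was not tested. On the deposited scale the differences were 0.89 (SE 0.34, adjusted p = 0.0527) and 0.87 (adjusted p = 0.0588), where 15.9% of probe sets passed as higher and 0.824% as lower. Both passed there without DMSO replicate 2 (1.03 and 1.05), siMITF replicate 1 (1.17 and 1.06) or THZ1 replicate 1 (1.05 and 1.18). Under quantile normalization the difference was 0.05 for 11720262_a_at (adjusted p = 0.771) and -0.01 for 11720263_a_at (adjusted p = 0.961), and the calls were lost there. For 11720262_a_at the call was also lost without any 1 array other than siMITF replicate 1, with values from 0.26 without siMITF replicate 2 (adjusted p = 0.143) to 0.57. For 11720263_a_at it was lost without DMSO replicate 1 (0.36), siCtrl replicate 2 (0.36), siMITF replicate 2 (0.33) or THZ1 replicate 2 (0.28). Ordered by centred level, 11720262_a_at averaged 11.07 ± 0.22 with siMITF, 11.69 ± 0.04 with THZ1, 11.78 ± 0.04 with siCtrl and 11.98 ± 0.01 with DMSO (log2, SD, n = 2). For 11720263_a_at the order of the middle groups turned, with 10.76 ± 0.06 for siCtrl and 10.83 ± 0.16 for THZ1, whose arrays overlapped.

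**Figure D2:**
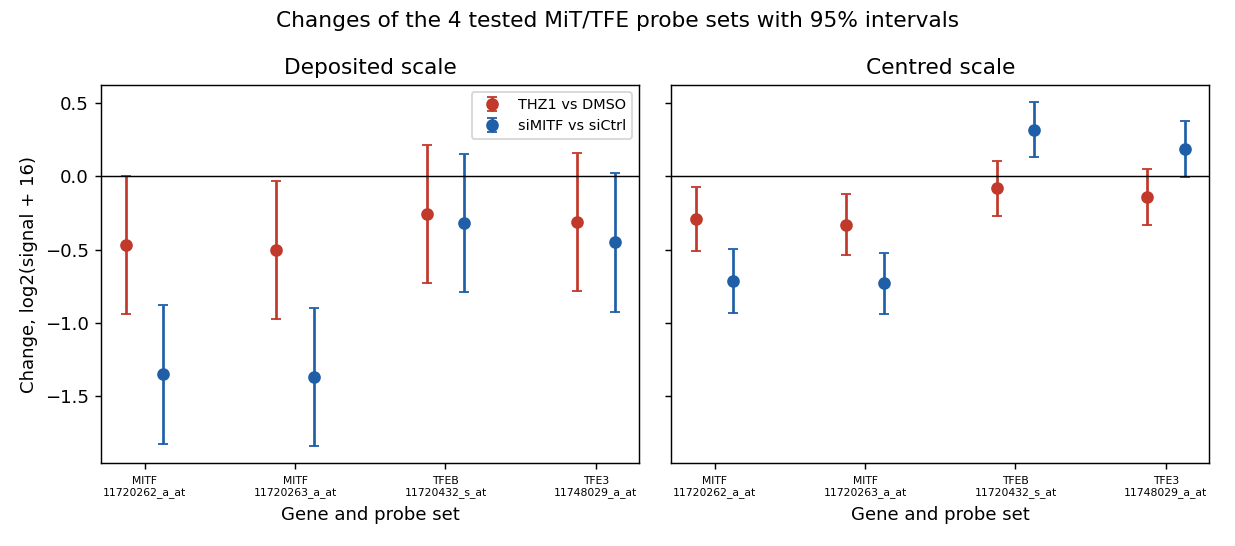
Changes of the 4 tested MiT/TFE probe sets (horizontal axis) on the deposited scale (left) and the centred scale (right), as log2(signal + 16), for THZ1 vs DMSO (red) and siMITF vs siCtrl (blue) with 95% intervals from limma. MITF fell with siMITF on both scales (-1.35 and -0.71 for 11720262_a_at), while TFEB with siMITF stood at -0.32 on the deposited scale and at 0.32 on the centred scale.

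TFEB, the regulator of lysosome biogenesis, did not pass the test on the deposited scale in either comparison. Probe set 11720432_s_at read 105 and 140 with THZ1 and 136 and 162 with DMSO, and the groups overlapped. It read 75.2 and 70.5 with siMITF, against 83.8 and 107 with siCtrl. These did not overlap, as held for 89.6% of tested probe sets lower with siMITF. The deposited change was -0.26 with THZ1 (adjusted p = 0.793) and -0.32 with siMITF (adjusted p = 0.211), smaller in size than the -0.64 of the median probe set with siMITF. On the centred scale, which sets that shared fall to near 0, TFEB was higher with siMITF by 0.32 (SE 0.09, interval 0.13 to 0.51, adjusted p = 0.0113). With THZ1 the centred change was -0.08 (adjusted p = 0.484). The centred levels were 6.93 ± 0.02 with THZ1, 7.01 ± 0.05 with DMSO, 7.04 ± 0.13 with siMITF and 6.72 ± 0.04 with siCtrl (log2, SD, n = 2). In order of level siCtrl was lowest and siMITF highest, and the siMITF and DMSO arrays overlapped.

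The centred rise of TFEB is a change relative to the other probe sets, since its signal itself was not higher with siMITF. In its decile of mean signal the median centred change with siMITF was near 0 (quartiles -0.18 and 0.18), so TFEB lay above the upper quartile. The call was lost without siMITF replicate 2 (0.22, adjusted p = 0.118), without siCtrl replicate 1 (0.29, adjusted p = 0.0585) and with no filter on low signals (0.09, adjusted p = 0.579). The THZ1 change minus the siMITF change was -0.40 on the centred scale (SE 0.12, adjusted p = 0.0212, with 18.9% of tested probe sets passing in this direction) and 0.06 on the deposited scale (adjusted p = 0.903). That call was lost without DMSO replicate 1 (-0.37), siCtrl replicate 1 (-0.37), siMITF replicate 2 (-0.31) or THZ1 replicate 2 (-0.39). The names of both TFEB probe sets end in _s_at, a design that can detect more than 1 related sequence. The other, 11747867_s_at, lay below the filter at 11.5 to 25.2 on all arrays and was not tested.

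TFE3, which shares most lysosomal targets with TFEB, did not pass the test in either comparison on either scale, although the siMITF change as deposited passed with a pseudocount of 1 (-0.57, adjusted p = 0.0487) and when only the 2 siRNA groups were fitted (-0.45, adjusted p = 0.0454). Probe set 11748029_a_at read 66.5 and 94.8 with THZ1 and 87.5 and 120 with DMSO, with overlap. It read 47.4 and 42.9 with siMITF and 64 and 71.3 with siCtrl, with no overlap, as held for 89.6% of tested probe sets. The deposited change was -0.31 with THZ1 (adjusted p = 0.660) and -0.45 with siMITF (adjusted p = 0.0827). The centred change was -0.14 with THZ1 (adjusted p = 0.240) and 0.19 with siMITF (interval -0.003 to 0.38, adjusted p = 0.0999). In its decile of mean signal the median centred change with siMITF was 0.13, with quartiles at -0.01 and 0.27, so TFE3 lay inside that range. Its centred levels were 6.40 ± 0.02 with THZ1, 6.54 ± 0.08 with DMSO, 6.50 ± 0.11 with siMITF and 6.31 ± 0.08 with siCtrl (log2, SD, n = 2), lowest with siCtrl, and the siMITF and DMSO arrays overlapped. The THZ1 change minus the siMITF change was -0.33 on the centred scale (adjusted p = 0.0536), which passed without siMITF replicate 1 (-0.41, adjusted p = 0.0424), and 0.14 on the deposited scale (adjusted p = 0.781). Probe set 11743855_a_at, at 24.7 to 51.9 over all arrays, lay below the filter and was not tested.

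TFEC was not detectable above background with any of its 3 probe sets. Their signals ran from 4.06 to 16.1 over the 8 arrays, while the median of 23 background control probe sets was 11.1 to 17.6 per array. Probe set 11734162_a_at read 12.8 and 10.9 with THZ1, 16.1 and 13.1 with DMSO, 10.9 and 10.9 with siMITF and 11.0 and 11.3 with siCtrl. Among the osteoclast and macrophage markers, cell types in which TFEC is known, 1 of 4 with a probe set lay above the filter (CTSK). The deposited changes of TFEC with siMITF were -0.01, 0.00 and -0.02 (log2), and its centred changes of 0.63, 0.64 and 0.62 are those of an unchanged signal after the subtraction. The 18114 probe sets below the filter had a median centred change of 0.47 with siMITF and 0.12 with THZ1, against -0.17 and -0.05 on the deposited scale.

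**Figure D3:**
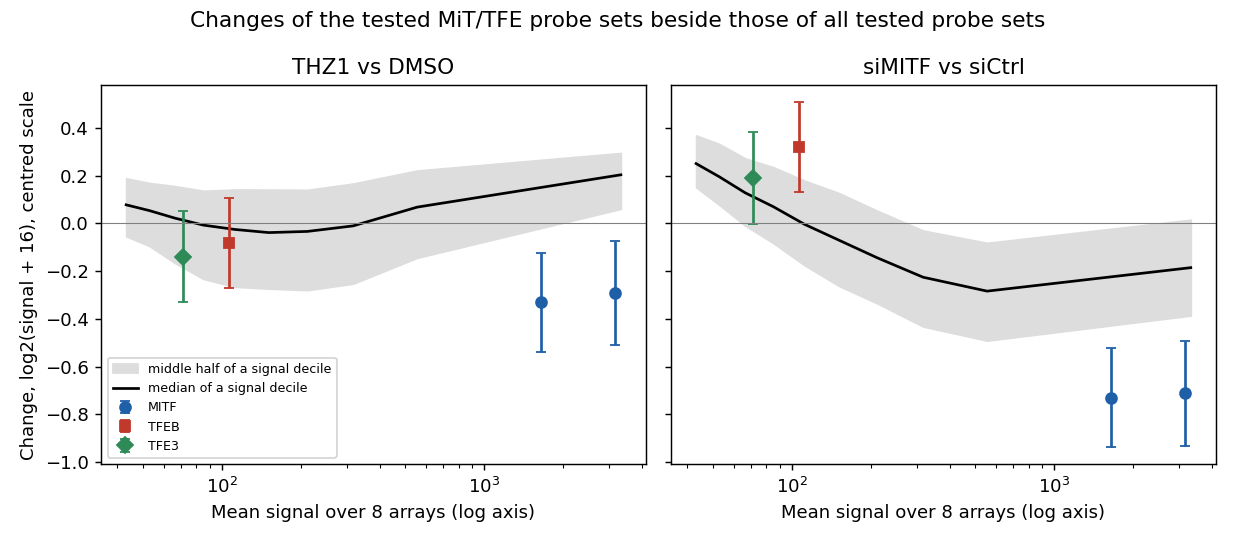
Centred change (vertical axis, log2) of the 4 tested MiT/TFE probe sets with 95% intervals against mean signal over 8 arrays (log axis), for THZ1 vs DMSO (left) and siMITF vs siCtrl (right). The black line is the median of all tested probe sets in each signal decile and the grey band runs between its quartiles. MITF lies under the band in both comparisons, where the medians of its decile were 0.20 with THZ1 and -0.19 with siMITF, and TFEB lies above it with siMITF.

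MITF was also set against its paralogs on the same array, which removes most of a factor shared by all signals of that array, though the added 16 leaves some of it at the lower signals of TFEB and TFE3. The levels of these differences have no meaning across probe sets, but their changes do. The log2 difference of MITF 11720262_a_at and TFEB was 4.27 and 3.78 in siMITF cells, against 5.11 and 5.0 in siCtrl cells, a change of -1.03. It was 4.78 and 4.75 with THZ1 and 4.94 and 5.0 with DMSO, a change of -0.21. The difference of MITF and TFE3 was 4.8 and 4.33 with siMITF and 5.43 and 5.50 with siCtrl, a change of -0.90. It was 5.33 and 5.24 with THZ1 and 5.50 and 5.38 with DMSO, a change of -0.15. The arrays did not overlap in any of these 4 cases, and the exact two-sided permutation p was 0.333, the smallest that 2 against 2 arrays can give. The MITF and TFE3 change with THZ1 depended on the pseudocount: it was -0.10 with a pseudocount of 1, where the arrays overlapped (exact p = 0.667), and -0.25 with 64. A permutation over 4 arrays therefore cannot reach 0.05.

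The genes whose pattern over the 8 arrays was nearest to MITF 11720262_a_at were found by the root mean square difference of centred log2 signals, each gene minus its own mean, among 11945 genes. They were SMC5 (0.077), TMEM70 (0.079), RFC3 (0.083), ARPC5L (0.085) and RBM14 (0.087). SMC5 is a subunit of a chromosome maintenance complex, RFC3 a subunit of the DNA clamp loader and RBM14 an RNA-binding coactivator. TMEM70 is an assembly factor of mitochondrial ATP synthase and ARPC5L a subunit of the actin-nucleating Arp2/3 complex. TMEM70 read 469 and 333 with siMITF against 939 and 1112 with siCtrl, and 810 and 1072 with THZ1 against 1176 and 1522 with DMSO. MITF's own probe set 11720263_a_at stood at 0.135 and the median gene at 0.395. TFEB stood at 0.426, with 7192 genes nearer to MITF, and TFE3 at 0.388, with 5735 nearer. Neither paralog was near MITF by this measure, which is given over 8 arrays with no test.

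**Figure D4:**
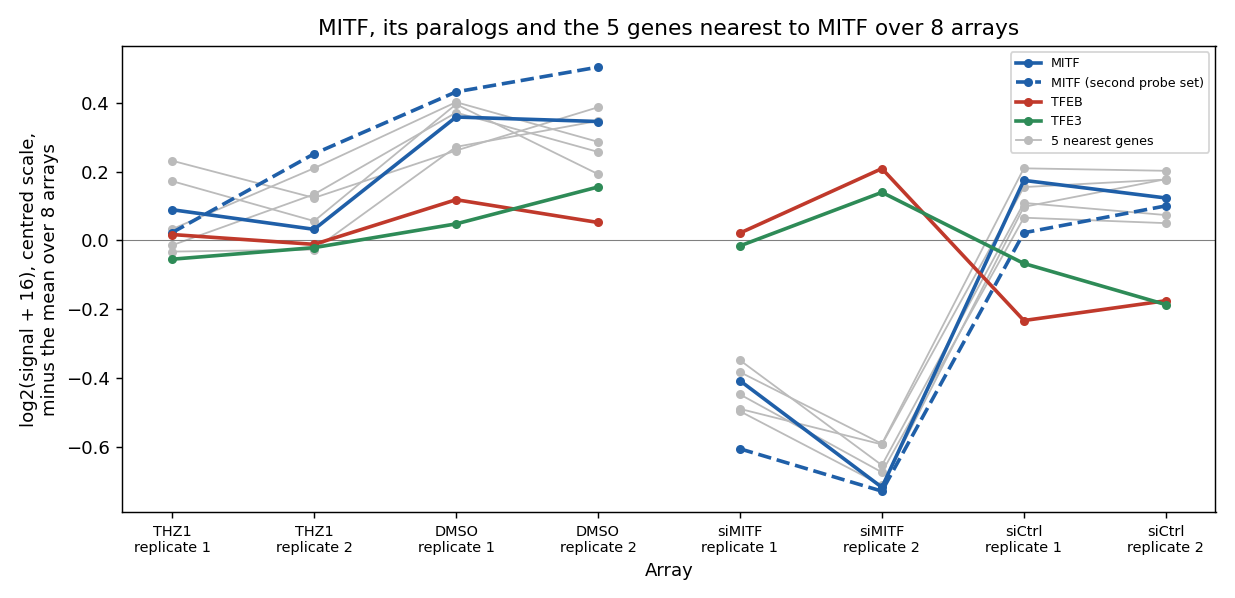
Centred log2 signal minus its mean over 8 arrays (vertical axis) on each array (horizontal axis) for MITF 11720262_a_at (solid blue) and 11720263_a_at (dashed blue), TFEB (red), TFE3 (green) and SMC5, TMEM70, RFC3, ARPC5L and RBM14 (grey). Lines join the arrays of 1 gene within each set and mark no order of replicates. MITF and the 5 genes drop on the siMITF arrays, where TFEB and TFE3 do not.

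Genes known to control MITF transcription were lower with THZ1 in 8 of 19 tested cases on the centred scale, and none passed as higher. Among all genes 21.8% passed as lower and 13% as higher. The list, like those below, holds 1 brightest probe set per gene, and its median change was -0.15 against 0.01 over all tested genes. SOX10, the neural crest factor that activates MITF, read 151 and 214 with THZ1, against 418 and 566 with DMSO. Both THZ1 arrays lay below both DMSO arrays, as held for 27.6% of tested probe sets. The change was -1.18 centred (adjusted p = 1.31e-05) and -1.36 as deposited (adjusted p = 3.27e-06). Its other probe set, 11753116_a_at, stood at -0.28 centred. CREB1, which carries cAMP signals to the TGACGTCA site, read 59.4 and 86.4 with THZ1 and 189 and 261 with DMSO, a centred change of -1.27 (adjusted p = 4.41e-06). All 6 of its tested probe sets were lower, by -0.77 to -1.59. LEF1, the Wnt pathway factor of the CTTTGAT site, read 355 and 468 with THZ1 and 700 and 824 with DMSO. Its centred change was -0.70 (adjusted p = 0.000116), and its other tested probe sets stood at -0.11 to -0.65.

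ZEB2, which represses E-cadherin and is expressed in melanocytes, read 128 and 161 with THZ1 and 229 and 276 with DMSO (centred change -0.57, adjusted p = 0.000302). Its other probe set, 11747942_a_at, stood at -0.22. FOXD3, a repressor of MITF in the neural crest, changed by -0.42 (adjusted p = 0.00801), a call lost without DMSO replicate 2 (-0.30, adjusted p = 0.0681) or THZ1 replicate 2 (-0.33, adjusted p = 0.0638). PAX3, which acts with SOX10 on the MITF promoter, did not pass, at -0.15 (adjusted p = 0.271), with 169 and 249 on the THZ1 arrays and 227 and 303 on the DMSO arrays, which overlapped. As deposited 4 of the 19 genes passed as lower, where 9.63% of all genes did and 0.0753% passed as higher. The count of 8 on the centred scale was 7 or 8 without any 1 array.

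With siMITF the shares of these regulators that passed lay near those of all genes. On the centred scale 5 of 19 passed as lower and 4 as higher, against 23.3% and 19.9% of all genes, with a median of 0.05. SOX10 read 219 and 181 with siMITF and 178 and 260 with siCtrl, so the arrays overlapped and the deposited change was -0.11 (adjusted p = 0.670). Relative to the typical probe set it was higher by 0.53 (adjusted p = 0.00146), but its other probe set, 11753116_a_at, stood at -0.36. FOXD3 read 85.8 and 66.8 with siMITF and 59.6 and 73.5 with siCtrl (centred change 0.80, adjusted p = 0.000131, and deposited change 0.16, adjusted p = 0.534). PAX3 and LEF1 changed by 0.54 and 0.47 on the centred scale (adjusted p = 0.00192 and 0.00102) and by -0.10 and -0.17 on the deposited scale, where neither passed. ADCY2, an adenylate cyclase, read 284 and 223 with siMITF and 487 and 624 with siCtrl, with a change of -0.44 centred (adjusted p = 0.00131) and -1.08 as deposited (adjusted p = 6.26e-05). As deposited 14 of the 19 passed as lower, where 65% of all genes did. The centred count of lower genes was 2 without siCtrl replicate 2 or siMITF replicate 2. Under quantile normalization 1 gene passed as lower and 7 as higher, and the shares of all genes under it are not given here.

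Genes of the nutrient signalling that controls where TFEB, TFE3 and MITF proteins reside passed as lower in 14 of 31 tested cases with siMITF on the centred scale and as higher in 2, TSC1 (0.38) and TSC2 (0.59), both named after their values were seen. Among all genes 23.3% passed as lower and 19.9% as higher. The list median was -0.18. Over all tested probe sets the median centred changes in the 8th, 9th and 10th deciles of mean signal were -0.23, -0.28 and -0.19. The list was not matched for signal. RRAGC and RRAGD, the Rag GTPases that carry MiT/TFE proteins to mTORC1, were among the lower genes. RRAGC read 331 and 246 in siMITF cells, against 639 and 903 in siCtrl cells (centred change -0.72, adjusted p = 0.000286), and its 4 probe sets stood at -0.63 to -0.83. RRAGD read 778 and 640 with siMITF and 1689 and 1777 with siCtrl (centred change -0.64, adjusted p = 0.00018), and its other probe sets stood at -1.19 and -0.79. All of these siMITF arrays lay under the siCtrl arrays, as held for 89.6% of tested probe sets. FNIP2, a partner of folliculin, read 134 and 87.2 with siMITF and 235 and 312 with siCtrl (centred change -0.56, adjusted p = 0.00125). FLCN, folliculin itself, did not pass, at 0.03 (adjusted p = 0.788), with 82.8 and 75.1 in siMITF cells and 114 and 144 in siCtrl cells.

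TBC1D7, a subunit of the TSC complex, changed by -0.59 with siMITF (adjusted p = 0.000161), and YWHAE, a 14-3-3 protein, by -0.53 (adjusted p = 0.000534). As deposited 25 of the 31 passed as lower with siMITF, where 65% of all genes did. The centred count of 14 was 9 without siCtrl replicate 2 and 7 under quantile normalization. With THZ1 the list had 5 lower and 4 higher genes of 31 on the centred scale and a median of 0.10, and 2 passed as lower on the deposited scale. The centred shares lay near or below those of all genes, 21.8% lower and 13% higher, and 9.63% of all genes passed as lower as deposited. The 5 became 3 without DMSO replicate 1, DMSO replicate 2 or THZ1 replicate 1, and the 4 became 2 without THZ1 replicate 1. FNIP1, the other folliculin partner, read 62.3 and 128 with THZ1, against 230 and 254 with DMSO, a centred change of -1.10 (adjusted p = 0.000296). Its tested probe set 11731055_x_at stood at -0.62. YWHAH, another 14-3-3 protein, changed by -0.53 (adjusted p = 0.00175) and YWHAB by 0.33 (adjusted p = 0.00703), both measured by _x_at probe sets that can detect related sequences. RPTOR, the mTORC1 scaffold, changed by -0.42 (adjusted p = 0.00193), while its other tested probe sets stood at -0.14 and 0.20. RRAGC and RRAGD did not pass with THZ1, at -0.10 (adjusted p = 0.486) and 0.12 (adjusted p = 0.276).

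**Figure D5:**
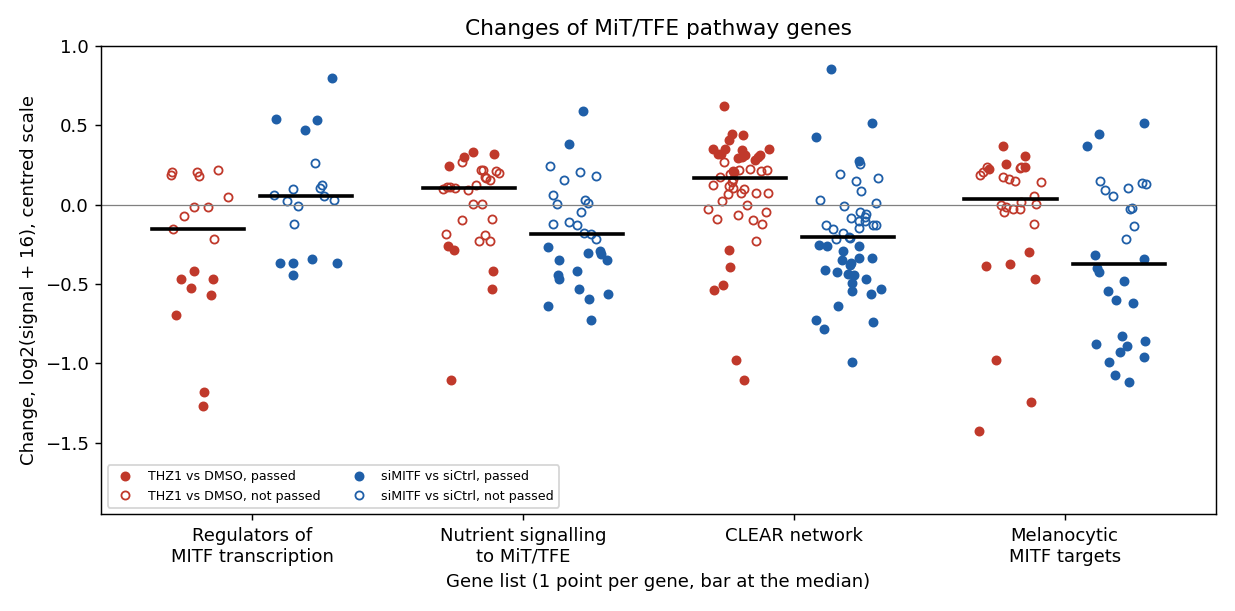
Centred change (vertical axis, log2) of each tested gene in 4 MiT/TFE lists (horizontal axis), THZ1 vs DMSO in red and siMITF vs siCtrl in blue. Filled points passed the test at an adjusted p under 0.05, and bars mark list medians. The medians with siMITF were 0.05, -0.18, -0.21 and -0.37 from left to right, and with THZ1 -0.15, 0.10, 0.17 and 0.04.

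The CLEAR network, the lysosome and autophagy genes reported as TFEB or TFE3 targets, passed as lower with siMITF in 23 of 50 tested genes on the centred scale and as higher in 4, with a median of -0.21, where 23.3% of all genes passed as lower and 19.9% as higher. With THZ1 17 of the 50 passed as higher and 6 as lower, with a median of 0.17, where 13% of all genes passed as higher and 21.8% as lower. In the 8th, 9th and 10th deciles of mean signal the median centred changes were -0.23, -0.28 and -0.19 with siMITF. With THZ1 they were -0.01, 0.07 and 0.20. Bright probe sets, ATP6V0D1 among them, thus tended to shift in these directions, and the list was not matched for signal. As deposited 42 passed as lower with siMITF (65% of all genes) and 3 with THZ1 (9.63% of all genes), with none higher, so the 17 rises with THZ1 are relative to the typical gene. RRAGC, RRAGD, FLCN, FNIP1, FNIP2 and MCOLN1 are counted both here and in the nutrient signalling list. Subunits of the vacuolar proton pump were among the lower genes with siMITF. ATP6V0D1 read 560 and 437 with siMITF, against 1253 and 1460 with siCtrl (centred change -0.78, adjusted p = 5.22e-05). Its other tested probe sets stood at -0.69 to -0.82 with siMITF, apart from 11763523_at at 0.09. With THZ1 ATP6V0D1 read 1511 and 2111, against 1420 and 1881 with DMSO (0.30, adjusted p = 0.0158). The THZ1 call was lost without DMSO replicate 1 (0.25, adjusted p = 0.102) or THZ1 replicate 2 (0.26, adjusted p = 0.0851). ATP6V1H read 355 and 282 with siMITF and 785 and 920 with siCtrl (-0.74, adjusted p = 4.58e-05), and did not pass with THZ1 (0.14, adjusted p = 0.169). MAP1LC3B, an autophagosome protein measured by an _x_at probe set, read 1279 and 1793 with THZ1 and 967 and 1271 with DMSO (0.62, adjusted p = 0.000245). With siMITF it read 411 and 343, against 718 and 915 with siCtrl (-0.44, adjusted p = 0.00154), but its probe set 11748422_a_at stood at 0.03.

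PPARGC1A, the coactivator of mitochondrial biogenesis and a reported target of both MITF and TFEB, was lower in both comparisons. It read 336 and 439 with THZ1 and 770 and 992 with DMSO, a centred change of -0.98 (adjusted p = 1.3e-05). It read 282 and 211 with siMITF and 712 and 877 with siCtrl, a change of -0.99 (adjusted p = 1.57e-05), and all 4 of its probe sets were lower in both comparisons. Its THZ1 change minus its siMITF change was 0.01 (adjusted p = 0.934). PIP4P1, a lysosomal membrane phosphatase, changed by -0.54 with THZ1 (adjusted p = 0.000398) and by -0.34 with siMITF (adjusted p = 0.0045). GPNMB, a melanosomal and lysosomal glycoprotein, did not pass on the centred scale with THZ1 (0.21, adjusted p = 0.0682) or with siMITF (0.08, adjusted p = 0.416). The count of 17 higher genes with THZ1 was 8 when THZ1 replicate 2 was left out, 9 when DMSO replicate 1 was, 11 when DMSO replicate 2 was, 11 under quantile normalization and 3 with no filter. The count of 23 lower genes with siMITF was 18 to 23 without any 1 array and 15 under quantile normalization.

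GAA, the lysosomal acid alpha-glucosidase, went the other way from the list. It read 213 and 173 with siMITF and 143 and 186 with siCtrl, so the arrays overlapped as deposited (0.22, adjusted p = 0.395), and relative to the typical probe set it was higher by 0.86 (adjusted p = 2.65e-05). With THZ1 it read 287 and 391, against 255 and 338 with DMSO, a centred change of 0.35 (adjusted p = 0.00641) that was 0.31 without DMSO replicate 1 and no longer passed. Of the 54 CLEAR genes 33 had a promoter window, and 16 of these held CACGTG. Over all windows, of which a gene can have several, 7.26% held it. With siMITF 7 of the 16 passed as lower and 2 as higher (median -0.15). Of the 17 tested genes whose window held no CACGTG 8 passed as lower and 2 as higher (median -0.21). Among all genes 23.3% passed as lower and 19.9% as higher. The windows of RRAGC and GAA are shown because both hold the E-box and their centred changes with siMITF, -0.72 and 0.86, have opposite signs. RRAGC (chr1:38859723-38860022, minus strand) holds CACGTG with its first base at -112. GAA (chr17:80101331-80101630, plus strand) holds it at -76 and -31, each inside the 10-base CLEAR element. CACGTG is in capitals, 5′ to 3′, in RefSeq sequence of GRCh38.p14.
RRAGC: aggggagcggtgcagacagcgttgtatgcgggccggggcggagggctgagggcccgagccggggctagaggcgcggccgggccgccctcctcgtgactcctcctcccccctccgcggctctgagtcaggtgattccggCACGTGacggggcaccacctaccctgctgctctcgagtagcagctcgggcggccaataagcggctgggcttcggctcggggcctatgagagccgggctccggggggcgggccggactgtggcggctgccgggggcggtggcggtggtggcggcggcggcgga
GAA: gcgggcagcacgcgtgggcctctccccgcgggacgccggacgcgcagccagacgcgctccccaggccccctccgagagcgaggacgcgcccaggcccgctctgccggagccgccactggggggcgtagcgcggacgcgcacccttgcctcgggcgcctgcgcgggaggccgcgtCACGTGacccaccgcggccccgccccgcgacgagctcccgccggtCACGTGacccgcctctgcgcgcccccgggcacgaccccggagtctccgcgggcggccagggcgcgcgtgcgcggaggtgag

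Reported melanocytic targets of MITF passed as lower with siMITF in 17 of 30 tested genes on the centred scale and as higher in 3, with a median of -0.37, where 23.3% of all genes passed as lower and 19.9% as higher. In the 8th, 9th and 10th deciles of mean signal the median centred changes were -0.23, -0.28 and -0.19, with lower quartiles at -0.43, -0.49 and -0.39. The list was not matched for signal, so its excess over all genes may partly reflect bright probe sets, which was not tested. RAB27A, a GTPase of melanosome transport, read 472 and 316 with siMITF, against 1236 and 1468 with siCtrl (centred change -1.12, adjusted p = 2.09e-05). It read 1561 and 2066 with THZ1, against 1582 and 2038 with DMSO (0.17, adjusted p = 0.188). The other tested probe sets of RAB27A stood at -0.56 to -0.93 with siMITF and at -0.33 to 0.06 with THZ1. SLC45A2, a melanosomal transporter, read 540 and 416 with siMITF and 1465 and 1734 with siCtrl (-1.08, adjusted p = 8.23e-06). ASAH1, acid ceramidase of the lysosome, read 1007 and 787 with siMITF and 2553 and 2928 with siCtrl (-0.96, adjusted p = 1.68e-05). In each case both siMITF arrays lay below both siCtrl arrays, as held for 89.6% of tested probe sets, and the THZ1 and DMSO arrays overlapped as deposited. The 3 higher genes were TYR (0.37), TBX2 (0.45) and CTSK (0.51), named after their values were seen apart from TBX2. CTSK read 26.1 to 64.6 over the arrays, near the filter, and its deposited change was -0.13. In the lowest decile of tested probe sets the median centred change with siMITF was 0.25. As deposited 24 of the 30 passed as lower, where 65% of all genes did, and none as higher.

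With THZ1 7 of the 30 melanocytic targets passed as lower on the centred scale and 5 as higher, with a median of 0.04. These shares lay near the 21.8% and 13% of all genes. The lower genes included the transcription factors SNAI2 and TBX2. SNAI2 read 410 and 615 with THZ1, against 1426 and 1701 with DMSO (-1.43, adjusted p = 2.81e-06), and 1129 and 889 with siMITF, against 1269 and 1615 with siCtrl (0.13, adjusted p = 0.230). TBX2 read 95.2 and 123 with THZ1 and 297 and 334 with DMSO (-1.24, adjusted p = 4.34e-06). Its siMITF arrays, 206 and 163, overlapped the siCtrl arrays, 196 and 230, as deposited, and its centred change was 0.45 (adjusted p = 0.00137). The THZ1 change minus the siMITF change was -1.56 for SNAI2 (adjusted p = 1.73e-05), -1.69 for TBX2 (adjusted p = 8.54e-06) and 1.29 for RAB27A (adjusted p = 8.33e-05). Of all tested probe sets 18.9% passed this centred difference as lower and 21.3% as higher. SNAI2 and TBX2 were named for a low adjusted p with THZ1 and RAB27A for one with siMITF, on these same arrays. Their differences are therefore no separate evidence. MC1R, the melanocortin receptor upstream of CREB1, changed by -0.47 with THZ1 (adjusted p = 0.00219) and did not pass with siMITF (0.05, adjusted p = 0.624). The count of 17 lower genes with siMITF was 14 to 17 without any 1 array. The count of 5 higher genes with THZ1 was 1 to 4, lowest without THZ1 replicate 1 or THZ1 replicate 2.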

How the data were processed

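Gene expression was measured on 8 Affymetrix arrays from 100 ng of RNA each, with ERCC spike-ins added in proportion to cell number, per the labels' protocols. The deposited values are array signals (intensity, linear scale) that the authors summarised with MAS5, per the submitters' processing notes, with no version given. The series' design text calls them normalized to cell number, and how this was calculated is not given in the sources used here. Every value column was assigned to a sample by its title, and 0 columns were left over.

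Probe sets were named through the platform annotation: 45284 had 1 symbol, 1333 several and 2878 none or were controls. Entrez IDs of 45214 matched RefSeq (GRCh38.p14) and 70 did not. Signals were analysed as log2(signal + 16). Probe sets with a mean at or above the 40th percentile, a signal of 39.2, were tested with limma 3.58.1 under R 4.3.3. The fit had a mean for each of the 4 groups over 8 arrays, empirical Bayes variances and Benjamini-Hochberg adjustment. The prior had infinite degrees of freedom on the deposited scale and 6.91 on the centred scale, where the median standard error was 0.09. The fit was tested on simulated data with independent noise of equal size for all probe sets. The simulation held no array offsets and no trend with signal, so it does not test their influence.

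The members and the gene lists were chosen with earlier results of these data known. Named genes are all probe sets of the 4 members, the 4 genes per list and comparison with the lowest adjusted p on the centred scale, SOX10, PAX3, RRAGD, FLCN, FNIP1, FNIP2 and GPNMB, and the 5 genes nearest to MITF. A gene is represented by its brightest probe set. The lists share genes, such as PPARGC1A, MC1R and HIF1A, so their counts are not separate observations. Alternatives changed the pseudocount, filter, probe set choice, variance model, samples in the fit, scaling, replicate block and the arrays used. The number of arrays limits the precision.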

Additional observations from a re-analysis of the deposited data

Results flagged for a closer look

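The change with THZ1 and the change with siMITF differed, by the test of the difference itself on the centred scale, for 3 of the 4 tested MiT/TFE probe sets, where 21.3% of tested probe sets passed as higher and 18.9% as lower. For MITF the THZ1 change minus the siMITF change was 0.42 with 11720262_a_at and 0.40 with 11720263_a_at, that is, MITF fell further with siMITF relative to the typical probe set. The median probe set of its decile of mean signal changed by 0.20 with THZ1 and by -0.19 with siMITF, a gap in the same direction. Whether MITF differed from probe sets of like signal was not tested. For TFEB 11720432_s_at the THZ1 change minus the siMITF change was -0.40, where the centred THZ1 value was -0.08 and the siMITF value 0.32. Under quantile normalization the MITF differences were 0.05 and -0.01, and that of TFEB was -0.30 with an adjusted p of 0.0659. On the deposited scale none of the 3 differences passed.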

How the results depend on the processing

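The fall of MITF with siMITF kept its direction and its call under all alternatives run on the centred scale, and on the deposited scale under all but each probe set's own variance (-1.35, adjusted p = 0.0798). The THZ1 change of 11720262_a_at on the centred scale lost its call with a pseudocount of 1 (-0.28), no filter (-0.34), own variance (-0.29) and the crossed pairing (-0.29), and ran from -0.32 to -0.26 without 1 array. On the deposited scale it passed with the crossed pairing (-0.47). Its difference between treatments lost the centred call with a pseudocount of 1 (0.33), a filter at the 60th percentile (0.30), own variance (0.42) and quantile normalization (0.05), and ran from 0.26 to 0.57 without 1 array. On the deposited scale it passed with a pseudocount of 64 (0.86), the replicate block (0.89) and the crossed pairing (0.89), and ran from 0.60 to 1.17 without 1 array.

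Directions turned for TFEB with THZ1 under quantile normalization (0.01), TFE3 with siMITF with no filter (-0.04), the centred difference of MITF 11720263_a_at under quantile normalization (-0.01), TBC1D7 with THZ1 under quantile normalization (0) and, on the deposited scale, the differences of TFEB (-0.12 to 0.25) and TFE3 (-0.08 to 0.35) without 1 array. They were -0.05 and -0.06 without DMSO replicate 1, -0.12 and -0.08 without THZ1 replicate 2 and, for TFEB, -0.09 without siCtrl replicate 2. The cause was not tested. Over the members 372 of the values kept direction and side of the threshold, 46 lost it, 22 gained it and 8 reversed.

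Counts of passing probe sets on the deposited scale, 1984 with THZ1, 17778 with siMITF and 4557 for the difference, were 1208, 7607 and 1288 with 1 probe set per gene, where fewer were tested. With limma on own variances they were 0, 0 and 0, with 2873, 13788 and 4157 at an unadjusted p under 0.05. The variance trend gave 1162 for the difference, and scaling to the ERCC median gave 1036 with THZ1 and 723 for the difference. Without 1 array they ran from 369 to 3724 with THZ1, from 5637 to 19826 with siMITF and from 334 to 10545 for the difference. On the centred scale 9025, 11920 and 10908 passed. They were 4632, 5275 and 4965 with 1 probe set per gene and 5526 and 7926 for THZ1 and siMITF with own variances, and THZ1 gave 4633 with no filter. Without 1 array THZ1 ran from 5605 to 8895 and siMITF from 7337 to 12217.

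Over tested probe sets, replicate 1 minus replicate 2 correlated at 0.104 between THZ1 and DMSO and at -0.167 between siMITF and siCtrl. A correlation over probe sets does not see an offset shared by a whole array. The array offsets (log2, replicates 1 and 2) were -0.02 and 0.37 with THZ1 and 0.20 and 0.50 with DMSO, lower for replicate 1 in both. With siMITF they were -0.44 and -0.70 and with siCtrl -0.05 and 0.19, in opposite orders. No label pairs same-numbered arrays. The replicate block moved the count for the deposited difference to 6869. The crossed pairing of the siRNA arrays, chosen after seeing the data, gave 9590 with THZ1 and 18823 for the difference on the deposited scale. With it TFEB with siMITF (-0.32, adjusted p = 0.00593) and TFE3 with siMITF (-0.45, adjusted p = 0.000288) and THZ1 (-0.31, adjusted p = 0.0131) passed as deposited, as did MITF 11720263_a_at with THZ1 (-0.51, adjusted p = 0.000972), and the centred difference of TFE3 passed (-0.33, adjusted p = 0.0332). No label gives this pairing.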
